A study of Mus musculus with 9 samples.

Results

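The colonic epithelium exchanges chloride, bicarbonate, sodium, protons and potassium with the gut lumen through a small set of membrane proteins, and 10 of their genes are described here in mouse colonic mucosa. They are the apical anion exchangers Slc26a3 and Slc26a2, the sodium/proton exchangers Slc9a2 and Slc9a3, the scaffold Slc9a3r1, the basolateral cotransporters Slc12a2 and Slc4a4, the chloride channel Cftr, the proton pump subunit Atp12a and the potassium channel Kcnn4. The genes were chosen by name, through the RefSeq transcript that each array probe is annotated with. That choice, and the choice of the related lists below, was made with earlier results of these data known. Their counts beside the shares of all features are therefore descriptive. Of 17305 genes with a symbol on the array, these 10 had 13 probes, and each gene had at least 1 probe well above background on every array of at least 1 group.

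The study compared ICR mice, an outbred stock, that were all given the colon carcinogen 1,2-dimethylhydrazine (DMH) under the skin in weekly doses of 20 mg/kg over 20 weeks. The hCA-Notumor group ate a diet with 3% calcium and is labelled as without tumors, and the hCA-Tumor group ate the same diet and is labelled as with tumors. The DMH group ate a normal diet with 1.24% calcium, and its tumor status is given only as control, so it is a carcinogen-treated group and not an untreated one. Each group had 3 arrays, 1 per sample, of total RNA from colonic mucosa that the labels call normal. Nothing in the labels ties the 3 samples of a group to different animals. The p-values therefore measure only the spread between arrays, which may be technical. Sex and age are not in the labels used here.

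In the colon, surface cells absorb salt when an apical sodium/proton exchanger works beside an apical chloride/bicarbonate exchanger. Slc26a3 (DRA) is the main chloride/bicarbonate exchanger of the colonic surface, and loss of its function in people causes congenital chloride diarrhoea. Secretion runs the other way: Slc12a2 (NKCC1) loads chloride across the basolateral membrane, Kcnn4 lets potassium out and keeps the cell negative, and chloride leaves through Cftr. Slc4a4 (NBCe1) brings bicarbonate in across the basolateral membrane, and Atp12a is the catalytic subunit of the colonic H,K-ATPase, which exchanges protons for luminal potassium.

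Levels are given as log2 of the scanner's processed signal minus the 75th percentile of the same array, so a level of 0 is the 75th percentile and a difference of 1 is 2-fold. A probe's level depends on its sequence, so levels were compared between arrays and never between genes. Between 61.1% and 73.7% of probes were well above background on an array, and none was saturated. The arrays lay on 3 slides: slide 1 held the 3 hCA-Notumor arrays and DMH 1, slide 2 held hCA-Tumor 1 and 2 with DMH 2 and 3, and slide 3 held hCA-Tumor 3 alone. Arrays of 1 group on 1 slide correlated at r = 0.9938 to 0.9969 over all features, arrays of 1 group on different slides at 0.9672 to 0.9843, and arrays of different groups on 1 slide at 0.979 to 0.9829. Slide and group are therefore partly mixed, and each difference of the 10 genes between 2 groups is also given with slide as a block. For both comparisons with DMH, the block uses only arrays that share a slide, so that value equals the difference within slide 1 for hCA-Notumor and within slide 2 for hCA-Tumor. Each blocked difference of hCA-Notumor from DMH thus rests on 1 DMH array, DMH 1, and is a weak check. That of hCA-Tumor leaves out hCA-Tumor 3. hCA-Notumor and hCA-Tumor shared no slide, and their blocked difference runs through the DMH arrays.

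Of the 10 genes, 6 were higher and 1 was lower in hCA-Notumor than in DMH at an adjusted p under 0.05 (limma, Benjamini-Hochberg over 21456 features). Over all features the same rule called 35.7% in this comparison, 18.5% as higher and 17.2% as lower. The median difference of the 10 genes was 0.69 on the log2 scale, against 0.075 over all features. The arrays of both groups did not overlap for 8 of the 10 genes and for 57.7% of all features. The genes that rose were Atp12a, Slc4a4, Slc26a3, Slc26a2, Slc9a3r1 and Slc9a2, and the gene that fell was Slc12a2. With slide as a block the counts were again 6 higher and 1 lower, beside 26.8% of all features called, 14.2% as higher and 12.5% as lower. In hCA-Tumor against DMH, 1 gene was higher and 5 were lower, beside 37% of all features called, 21% as higher and 16% as lower, and the median of the 10 genes was −0.16, against 0.076 over all features. The arrays did not overlap for 8 of the 10 genes and for 49.4% of all features. Slc26a3 rose there, while Slc9a2, Slc9a3, Slc12a2, Cftr and Kcnn4 fell. In the fit with slide as a block 1 was higher and 4 were lower, beside 42.5% of all features called, 23.8% as higher and 18.7% as lower. Between hCA-Notumor and hCA-Tumor, 9 of the 10 genes were higher in hCA-Notumor and none was lower, beside 47.7% of all features called, 20.8% as higher and 26.9% as lower. The median of the 10 genes was 0.83 in that comparison and that of all features was −0.00021. The arrays did not overlap for 9 of the 10 genes and for 59% of all features. With slide as a block 7 were higher and none was lower, beside 30% of all features called, 14.5% as higher and 15.5% as lower. The comparisons with DMH share the DMH arrays, and the comparison between the high calcium groups shares arrays with both.

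**Figure D1:**
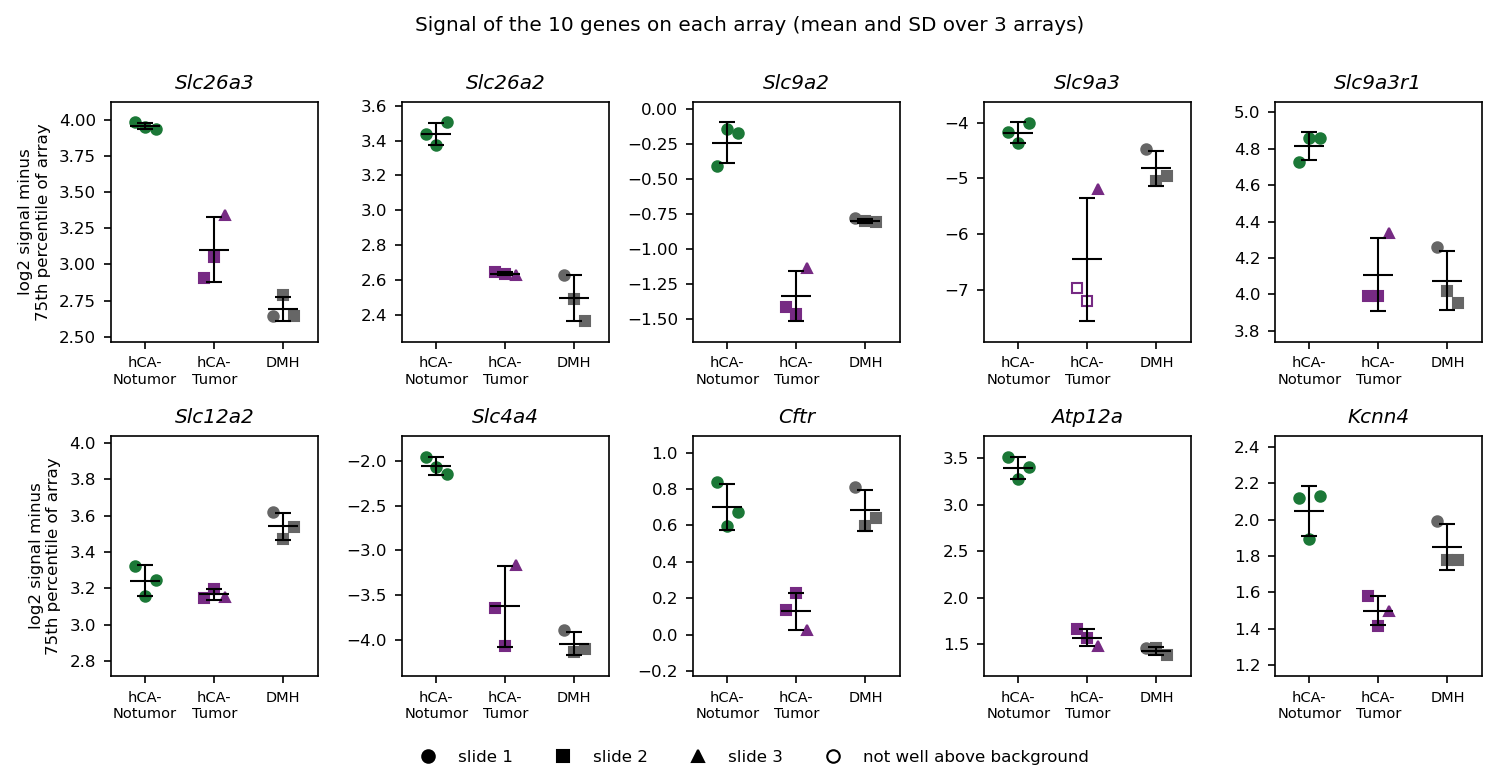
Levels of the 10 genes on each array (log2 signal minus the 75th percentile of the array) in hCA-Notumor, hCA-Tumor and DMH; marks give the slide, open marks a signal not well above background, and lines the mean and SD over 3 arrays. The 3 hCA-Notumor arrays stand above all others for Slc26a3, Slc26a2, Slc9a2, Slc9a3, Slc9a3r1, Slc4a4 and Atp12a, and the 3 hCA-Tumor arrays stand below all others for Slc9a2, Slc9a3, Cftr and Kcnn4.

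Slc26a3 had levels of 3.98, 3.95 and 3.94 in hCA-Notumor, of 2.91, 3.05 and 3.35 in hCA-Tumor, and of 2.65, 2.79 and 2.64 in DMH. No array of one group overlapped another group, and the hCA-Notumor arrays lay close together. The difference of hCA-Notumor from DMH was 1.26 ± 0.11 (SE, n = 3 arrays each), which is 2.40-fold, with a limma adjusted p of 0.000174, and it was 1.31 with slide as a block. hCA-Tumor differed from DMH by 0.41 ± 0.11, with an adjusted p of 0.0213. That call was lost when each array was centred on its median (0.29, adjusted p = 0.181), in the authors' whole-series table (0.28, adjusted p = 0.216), when the hCA-Notumor arrays were left out of the fit (adjusted p = 0.0633) and within slide 2 alone (0.27, adjusted p = 0.0889), while with slide as a block the same 0.27 was called (adjusted p = 0.0346). It was also lost without DMH 1 (adjusted p = 0.0552) and without DMH 3 (adjusted p = 0.0693). Between the high calcium groups Slc26a3 was 0.86 ± 0.11 higher in hCA-Notumor, with an adjusted p of 0.000666, and 1.04 with slide as a block.

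Slc26a2, which carries sulfate as well as other anions and is known as the gene of diastrophic dysplasia, had levels of 3.44, 3.37 and 3.51 in hCA-Notumor, of 2.65, 2.63 and 2.63 in hCA-Tumor, and of 2.63, 2.49 and 2.37 in DMH. Here hCA-Notumor stood apart, and the lowest hCA-Tumor array lay just above the highest DMH array. The difference of hCA-Notumor from DMH was 0.94 ± 0.072, or 1.92-fold, with an adjusted p of 0.000107, and 0.81 with slide as a block. hCA-Tumor differed from DMH by 0.14 ± 0.072, and by 0.21 with slide as a block, neither of which was called (adjusted p = 0.17 and 0.0509). hCA-Notumor was 0.80 ± 0.072 higher than hCA-Tumor, with an adjusted p of 0.000158, and 0.60 with slide as a block.

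Promoter sequence was taken for 6 of the 10 genes from the RefSeq-derived table (build GRCm38.p6). Part of the table was left out before the genes were matched. The count of 6 therefore does not show which of the 10 genes the table holds. The 250 bases before the start are printed for 3 genes that differed in their response: Slc26a3 and Slc9a3r1, which were higher in hCA-Notumor than in DMH, and Cftr, which was not called there. All 3 lie on the plus strand, at chr12:31437969-31438218, chr11:115163091-115163340 and chr6:18170437-18170686. Capitals mark motif matches on either strand.
Slc26a3: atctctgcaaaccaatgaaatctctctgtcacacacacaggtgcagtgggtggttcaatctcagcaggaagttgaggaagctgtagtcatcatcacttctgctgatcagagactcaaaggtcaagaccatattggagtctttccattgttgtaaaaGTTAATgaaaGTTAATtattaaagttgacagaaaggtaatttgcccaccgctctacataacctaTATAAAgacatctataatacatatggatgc
Slc9a3r1: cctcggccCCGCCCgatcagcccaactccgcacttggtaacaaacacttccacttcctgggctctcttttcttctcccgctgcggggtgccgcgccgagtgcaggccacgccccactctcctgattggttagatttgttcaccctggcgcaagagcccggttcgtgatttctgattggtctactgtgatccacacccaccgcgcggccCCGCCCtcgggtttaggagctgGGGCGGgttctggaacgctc
Cftr: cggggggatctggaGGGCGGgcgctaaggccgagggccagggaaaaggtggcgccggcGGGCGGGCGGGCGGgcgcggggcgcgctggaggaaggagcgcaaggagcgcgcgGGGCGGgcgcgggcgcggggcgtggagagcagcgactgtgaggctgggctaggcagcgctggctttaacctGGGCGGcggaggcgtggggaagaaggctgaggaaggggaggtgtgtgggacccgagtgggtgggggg
The 6 motifs searched were the TATA box TATAAA, the CDX site TTTATG, the GC box GGGCGG, the GATA site AGATAA, the HNF1 site core GTTAAT and the E box CACGTG. In the Slc26a3 window the capitals are a TATA box that begins 30 bases before the start and a pair of HNF1 site cores that begin 94 and 84 bases before it. That window is 38.8% G and C, against a median of 52.4% over all 32851 promoters in the table. The Slc9a3r1 window holds 3 GC boxes and is 62.8% G and C, and the Cftr window holds 6 GC boxes, 3 of them overlapping in 1 run of capitals, and is 76.4% G and C. Over all promoters a TATA box match occurs in 12.4%, an HNF1 site core in 6.43%, a GC box in 32.7%, a CDX site in 10.8%, a GATA site in 9.99% and an E box in 6.02%. These are matches of letters, not measured binding sites.

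Slc9a2 (NHE2), an apical sodium/proton exchanger, had levels of −0.41, −0.15 and −0.18 in hCA-Notumor, of −1.41, −1.46 and −1.13 in hCA-Tumor, and of −0.78, −0.80 and −0.81 in DMH. The 3 groups did not overlap, with DMH between the high calcium groups. hCA-Notumor was 0.55 ± 0.10 above DMH (limma adjusted p = 0.0056), and 0.54 with slide as a block (adjusted p = 0.0187). This call was lost when arrays were centred on their median (0.37, adjusted p = 0.0828) and when slide 1 was fitted alone (adjusted p = 0.0679). hCA-Tumor fell by 0.54 ± 0.10 relative to DMH, with an adjusted p of 0.00593, and by 0.63 with slide as a block. The difference between hCA-Notumor and hCA-Tumor was 1.09 ± 0.10, or 2.13-fold, with an adjusted p of 0.000196, and 1.17 with slide as a block.

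Slc9a3 (NHE3), the main sodium-absorbing exchanger of the intestinal brush border, was dim. It had levels of −4.17, −4.37 and −4.00 in hCA-Notumor, of −6.97, −7.20 and −5.19 in hCA-Tumor, and of −4.47, −5.04 and −4.95 in DMH. It was well above background on 3 hCA-Notumor arrays, on 1 hCA-Tumor array (hCA-Tumor 3, the one on slide 3) and on 3 DMH arrays. The processed signals, before scaling, were 39.2, 31.5 and 40.2 in hCA-Notumor, 5.39, 3.89 and 20.9 in hCA-Tumor, and 33.3, 24.4 and 26.4 in DMH. The groups did not overlap, but the hCA-Tumor mean includes 2 arrays where the probe was not well above background. hCA-Notumor differed from DMH by 0.64 ± 0.50, which was not called (adjusted p = 0.336) although it was called without hCA-Tumor 3 (adjusted p = 0.0248). It was 0.28 with slide as a block (adjusted p = 0.237). hCA-Tumor was 1.63 ± 0.50 lower than DMH (difference −1.63, adjusted p = 0.0362), and −2.09 with slide as a block (adjusted p = 0.000619). That call was lost with normexp background correction (−0.086, adjusted p = 0.754), with dim probes kept in the fit (adjusted p = 0.0658) and with each of the other 8 arrays left out in turn, whereas without hCA-Tumor 3 it stood (−2.27, adjusted p = 0.000584). hCA-Notumor was 2.27 ± 0.50 above hCA-Tumor (adjusted p = 0.00741), which normexp correction reduced to 0.39 (adjusted p = 0.112) and which was 2.37 with slide as a block. For differences that involve hCA-Tumor, the block and the fit without hCA-Tumor 3 rest on hCA-Tumor 1 and 2 alone. On those 2 arrays the probe was not well above background, so the larger values found there are not firmer.

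Slc9a3r1 (NHERF1), a scaffold that holds Slc9a3, Cftr and other apical proteins near the cytoskeleton, had levels of 4.73, 4.86 and 4.86 in hCA-Notumor, of 3.99, 3.99 and 4.34 in hCA-Tumor, and of 4.26, 4.02 and 3.95 in DMH. hCA-Notumor stood apart, and hCA-Tumor and DMH overlapped. The difference of hCA-Notumor from DMH was 0.74 ± 0.12, or 1.67-fold, with an adjusted p of 0.00294, and 0.56 with slide as a block. hCA-Tumor differed from DMH by 0.032 ± 0.12 (adjusted p = 0.868), a value whose sign turned in 4 of 23 alternatives and which was 0.0079 with slide as a block. hCA-Notumor was 0.71 ± 0.12 higher than hCA-Tumor, with an adjusted p of 0.00239, and 0.55 with slide as a block.

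Slc4a4 had levels of −1.95, −2.07 and −2.14 in hCA-Notumor, of −3.64, −4.07 and −3.16 in hCA-Tumor, and of −3.89, −4.13 and −4.10 in DMH. hCA-Notumor stood well above the others, and hCA-Tumor and DMH overlapped. The difference of hCA-Notumor from DMH was 1.99 ± 0.21, or 3.98-fold, with an adjusted p of 0.000408, and 1.84 with slide as a block. With normexp background correction it was 0.92, still called (adjusted p = 0.00209). A second probe of the gene had −2.61, −2.83 and −2.65 in hCA-Notumor, −3.88, −4.17 and −3.95 in hCA-Tumor, and −4.25, −4.02 and −3.97 in DMH, a difference of hCA-Notumor from DMH of 1.38 ± 0.11. The remaining probe was well above background on 1 array only and was not tested. hCA-Tumor differed from DMH by 0.42 ± 0.21 (adjusted p = 0.159) on the first probe and by 0.081 ± 0.11 on the second, neither of which was called. On the first probe, leaving out hCA-Tumor 2 made the difference 0.64 (adjusted p = 0.0245), and with slide as a block it was 0.26 (adjusted p = 0.191). hCA-Notumor was 1.57 ± 0.21 higher than hCA-Tumor on the first probe (adjusted p = 0.000827) and 1.30 ± 0.11 higher on the second. The first of these was 1.58 with slide as a block and 0.68 with normexp correction (adjusted p = 0.00519).

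Slc12a2 moved the other way. Its levels were 3.32, 3.16 and 3.25 in hCA-Notumor, 3.15, 3.20 and 3.15 in hCA-Tumor, and 3.62, 3.47 and 3.54 in DMH. Both high calcium groups lay below every DMH array and overlapped each other. hCA-Notumor fell by 0.30 ± 0.061 relative to DMH (limma adjusted p = 0.0079) and hCA-Tumor fell by 0.38 ± 0.061 (adjusted p = 0.00279). With slide as a block both remained called, at −0.38 and −0.33, but the hCA-Notumor difference was not called when slide 1 was fitted alone (adjusted p = 0.0708). When arrays were centred on their median the differences were larger, −0.49 and −0.50, but neither was called (adjusted p = 0.073 and 0.0781). The difference between the high calcium groups, 0.076 ± 0.061, was not called (adjusted p = 0.338), and it was −0.045 with slide as a block.

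Atp12a had levels of 3.51, 3.28 and 3.40 in hCA-Notumor, of 1.66, 1.57 and 1.48 in hCA-Tumor, and of 1.46, 1.46 and 1.39 in DMH. The hCA-Notumor arrays stood far above the other 6, and the lowest hCA-Tumor array lay just above the highest DMH array. The difference of hCA-Notumor from DMH was 1.96 ± 0.075, or 3.90-fold, with an adjusted p of 6.13e-06, and 1.94 with slide as a block. hCA-Tumor differed from DMH by 0.14 ± 0.075, and by 0.20 with slide as a block, neither of which was called (adjusted p = 0.201 and 0.127). hCA-Notumor was 1.83 ± 0.075 higher than hCA-Tumor, or 3.54-fold, and 1.74 with slide as a block. Over all features, 99.4% had a smaller signed difference between hCA-Notumor and DMH than Atp12a.

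Cftr was measured by a probe printed 10 times on each array, so its error within an array could be read directly. The SD between the 8 to 10 usable spots of an array ran from 0.0277 to 0.0797. Its levels were 0.84, 0.59 and 0.67 in hCA-Notumor, 0.14, 0.23 and 0.024 in hCA-Tumor, and 0.81, 0.60 and 0.64 in DMH. hCA-Notumor and DMH overlapped almost fully, and hCA-Tumor lay below both. hCA-Notumor differed from DMH by 0.019 ± 0.091, which was not called (adjusted p = 0.876) and whose sign turned in 7 of 23 alternatives, slide as a block among them (−0.11). hCA-Tumor fell by 0.56 ± 0.091 relative to DMH, with an adjusted p of 0.00299, and by 0.44 with slide as a block. hCA-Notumor was 0.57 ± 0.091 higher than hCA-Tumor (adjusted p = 0.00181), but with slide as a block this was 0.33 and was not called (adjusted p = 0.12). The call was also lost with median centring (limma adjusted p = 0.0745) and in the whole-series table (0.0544). A second Cftr probe was not well above background on any array.

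**Figure D2:**
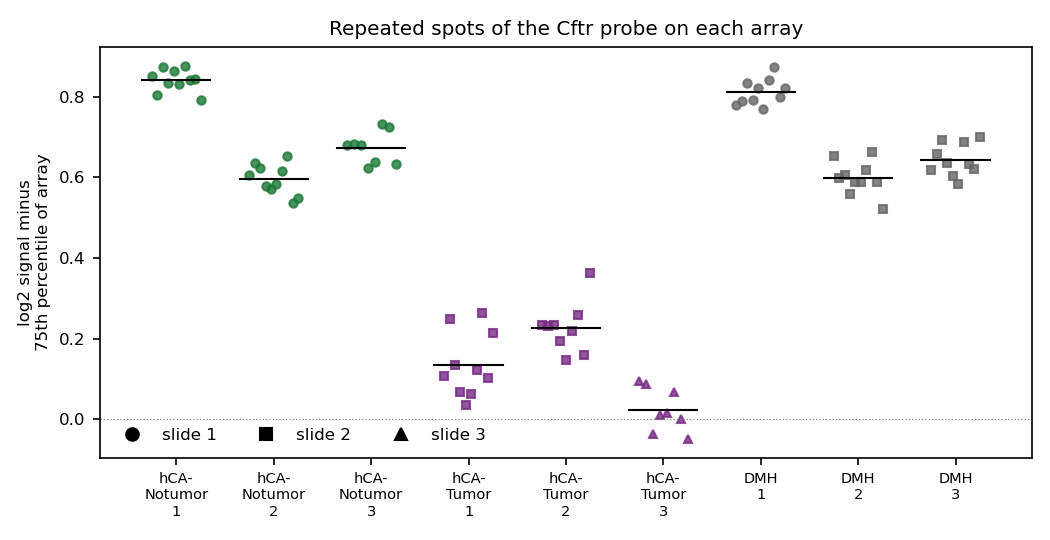
Level of each usable spot of the Cftr probe (log2 signal minus the 75th percentile of the array) on the 9 arrays, with the array's mean as a line and the slide as the mark. Spots of hCA-Tumor arrays lay at 0.36 or lower, while those of hCA-Notumor and DMH arrays lay at 0.52 or higher.

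Kcnn4 had levels of 2.12, 1.89 and 2.13 in hCA-Notumor, of 1.58, 1.42 and 1.50 in hCA-Tumor, and of 1.99, 1.78 and 1.78 in DMH. As for Cftr, hCA-Tumor lay lowest while hCA-Notumor and DMH overlapped. hCA-Notumor differed from DMH by 0.20 ± 0.093, and by 0.053 with slide as a block, neither of which was called (adjusted p = 0.136 and 0.776). hCA-Tumor fell by 0.35 ± 0.093 relative to DMH (limma adjusted p = 0.0212). With slide as a block it fell by 0.28, which was not called (adjusted p = 0.0714). The call was lost in 8 of 23 alternatives, among them within slide 2 (adjusted p = 0.0552), normexp correction (0.0598), median centring (0.102), the whole-series table (0.0817) and dim probes kept in the fit (0.0504). It was also lost without hCA-Tumor 2 (adjusted p = 0.0721) and, at the threshold, without DMH 1 (adjusted p = 0.05). hCA-Notumor was 0.55 ± 0.093 higher than hCA-Tumor (adjusted p = 0.00237), and 0.33 with slide as a block, where it was not called (adjusted p = 0.154). That call was also lost with median centring (limma adjusted p = 0.0629) and in the whole-series table (0.0503).

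**Figure D3:**
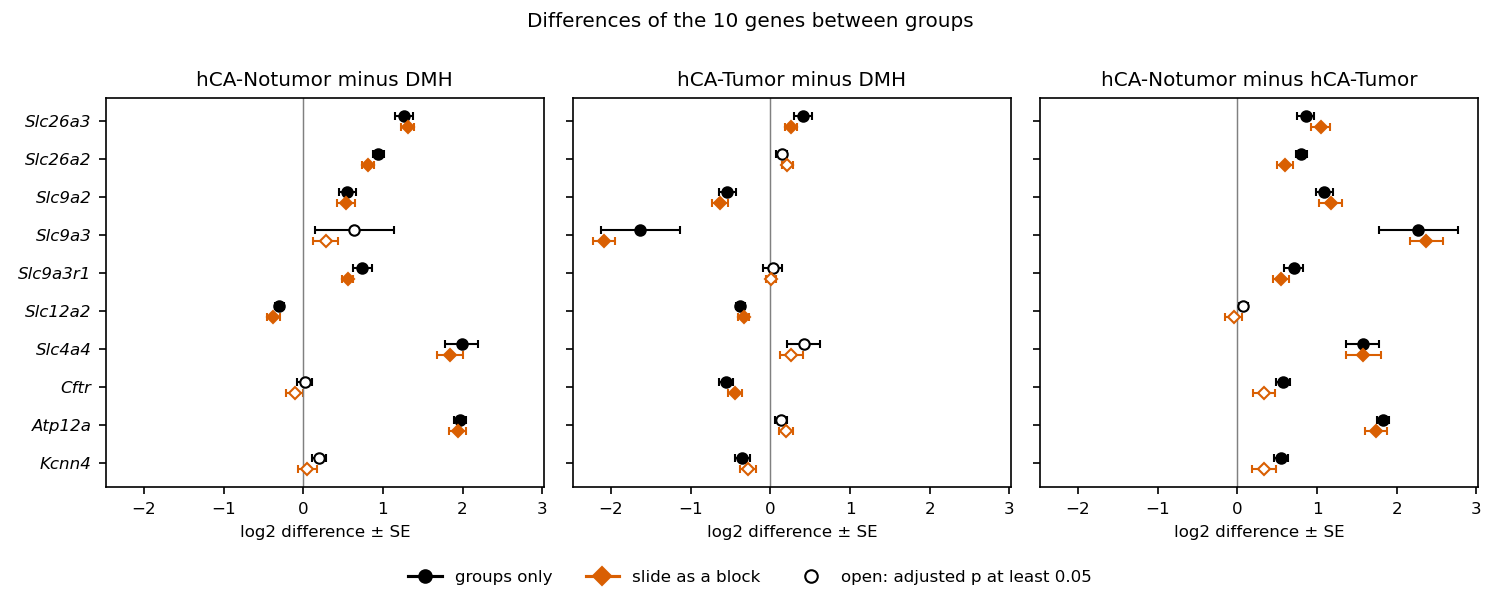
Differences of the 10 genes in 3 comparisons (log2 scale, ± SE), from the fit on groups only (circles) and with slide as a block (diamonds); open marks have an adjusted p of at least 0.05. Atp12a and Slc4a4 have the largest differences between hCA-Notumor and DMH, 1.96 and 1.99, and the blocked values of Cftr and Kcnn4 between the high calcium groups are open.

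For the mean of both high calcium groups minus DMH, 5 genes were higher and 2 were lower, beside 31.6% of all features called, 17.9% as higher and 13.8% as lower. Adding slide as a block gave 5 higher and 3 lower, beside 38.8% of all features called, 21.5% as higher and 17.3% as lower. The DMH arrays did not overlap the 6 high calcium arrays for 4 of the 10 genes and for 19.9% of all features. Atp12a was 1.05 ± 0.065 higher (limma adjusted p = 7.41e-05), Slc4a4 1.21 ± 0.18 (0.00242; 0.58 with normexp correction, adjusted p = 0.0113), Slc26a3 0.84 ± 0.093 (0.00071), Slc26a2 0.54 ± 0.062 (0.000797) and Slc9a3r1 0.39 ± 0.10 (0.0263). Slc12a2 fell by 0.34 ± 0.0525 (adjusted p = 0.00285) and Cftr fell by 0.27 ± 0.079 (adjusted p = 0.0368). For Atp12a, Slc4a4, Slc26a2 and Slc9a3r1 the difference from DMH was called in hCA-Notumor and not in hCA-Tumor, and for Cftr it was called in hCA-Tumor and not in hCA-Notumor. The Cftr call on the mean was lost in 12 of 21 alternatives, and the Slc9a3r1 call in 8 of 21. With arrays centred on their median Slc26a2, Slc9a3r1 and Slc12a2 were not called either (adjusted p = 0.113, 0.216 and 0.0542). Slc9a3, at −0.50 ± 0.43, was not called (adjusted p = 0.417), but it was called with slide as a block (−0.90, adjusted p = 0.00205) and without hCA-Tumor 3 (−0.81, adjusted p = 0.00913). Those fits take hCA-Tumor from hCA-Tumor 1 and 2 alone, where the Slc9a3 probe was not well above background. Slc9a2, at 0.0084 ± 0.090 (adjusted p = 0.948), averages a rise and a fall.

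Profiles of the 10 genes were compared over the 9 arrays. Across all 45 pairs of the 10 genes, Pearson's r ran from −0.57 (Slc26a3 with Slc12a2) to 0.99 (Slc26a2 with Atp12a), as a description over arrays that share groups and slides. Slc26a3, Slc26a2, Slc9a3r1, Slc4a4 and Atp12a varied closely together, with r = 0.97 between Slc26a3 and Slc4a4 and r = 0.95 between Slc26a2 and Slc9a3r1. Among all other genes, the profile most like that of Slc26a3 over the 9 arrays was that of Rnf225 (r = 0.9873), then Usp2 (0.9867) and Ankrd26 (0.9801). For Slc26a2 the likest were Cd82 (0.9974), Chmp4c (0.9966) and Nectin3 (0.9953), and for Atp12a they were Aldh2 (0.9963), B3gnt7 (0.9954) and Trim30d (0.9945). Slc4a4 was most like Mcur1 (0.9892), Sprr2a1 (0.9874) and Sik2 (0.9866), and the 3 likest to Slc9a3r1 included Dgat1 (0.9883) and Rap1gap2 (0.9876). B3gnt7 was itself 2.05 higher in hCA-Notumor than in DMH and 0.31 higher in hCA-Tumor than in DMH.

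The genes lowest in hCA-Tumor had other neighbours. Slc9a2 was most like Iqgap2 (r = 0.9949), Pitpna (0.9929) and Gltp (0.9912). Slc9a3, not well above background on 2 hCA-Tumor arrays, was most like Psme3 (0.9939), Capn1 (0.988) and Lrrc42 (0.988). Cftr was most like Zgpat (0.9929), Pdia4 (0.9885) and Atp6v1c1 (0.9885), and the 3 likest to Kcnn4 included Rbfa (0.9883) and Clptm1 (0.985). Slc12a2, lowest in both high calcium groups, was most like Cfap36 (0.9873), C2cd4b (0.9816) and Srpk1 (0.9795). C2cd4b was 0.83 lower in hCA-Notumor than in DMH and 1.01 lower in hCA-Tumor than in DMH (differences −0.83 and −1.01).

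Related transporters were taken as lists of other exchangers, of scaffolds and regulators, and of channels and pumps. Their counts stand beside 35.7% of all features called in hCA-Notumor against DMH, 37% in hCA-Tumor against DMH and 47.7% between hCA-Notumor and hCA-Tumor. Of 17 other exchangers 13 were tested, and 1 was higher and 1 lower in hCA-Notumor than in DMH, with a median difference of 0.025. In hCA-Tumor against DMH 4 were higher and 2 lower, with a median of 0.15, and between hCA-Notumor and hCA-Tumor 3 were higher and 2 lower, with a median of 0.068. With slide as a block the last counts were 0 higher and 2 lower, with a median of −0.10, beside 30% of all features called. Slc26a4 (pendrin), a chloride/iodide and chloride/bicarbonate exchanger, was highest in hCA-Tumor. Its levels were −3.81, −3.17 and −3.16 in hCA-Notumor, −1.46, −1.44 and −1.51 in hCA-Tumor, and −2.97, −3.01 and −3.06 in DMH. It was 1.54 ± 0.16 higher in hCA-Tumor than in DMH (adjusted p = 0.000552), and hCA-Notumor fell by 1.91 ± 0.16 relative to hCA-Tumor (adjusted p = 0.000134). With normexp correction these differences were 0.98 and −1.06, both still called.

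Slc4a2 (AE2), a widely expressed chloride/bicarbonate exchanger of the basolateral membrane, had levels of 3.12, 3.41 and 3.41 in hCA-Notumor, of 2.72, 2.74 and 2.81 in hCA-Tumor, and of 3.64, 3.44 and 3.49 in DMH. hCA-Tumor lay below all other arrays and fell by 0.77 ± 0.093 relative to DMH (adjusted p = 0.000901). Slc26a9, an anion transporter known mainly from stomach and lung, was 1.23 ± 0.32 lower in hCA-Notumor than in DMH (difference −1.23, adjusted p = 0.023). It was dim, well above background on 1 hCA-Notumor, 2 hCA-Tumor and 3 DMH arrays, and normexp correction turned the difference to 0.10. Slc4a7, the other called gene, was 0.40 ± 0.055 higher in hCA-Notumor than in DMH on its brightest probe, but its other 2 probes were at −0.19 and −0.27, and median centring ended the call (0.21, adjusted p = 0.315).

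All 16 scaffolds and regulators were tested. In hCA-Notumor against DMH 8 were higher and 1 lower with a median of 0.33, in hCA-Tumor against DMH 2 were higher and 4 lower with a median of −0.090, and between the high calcium groups 8 were higher and 1 lower with a median of 0.38. With slide as a block the first of these counts became 4 higher and none lower and the last 3 higher and 1 lower, while the share of all features called became 26.8% and 30%. Chp2, a cofactor of sodium/proton exchangers, had levels of −0.065, −0.19 and −0.14 in hCA-Notumor, of −1.20, −1.72 and −1.73 in hCA-Tumor, and of −0.94, −1.16 and −1.20 in DMH. It was 0.97 ± 0.15 higher in hCA-Notumor than in DMH (adjusted p = 0.00231) and 1.42 ± 0.15 higher than in hCA-Tumor (adjusted p = 0.000289).

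Gucy2c, the receptor for guanylin and uroguanylin, had levels of 3.09, 3.16 and 3.13 in hCA-Notumor, of 2.09, 1.92 and 2.26 in hCA-Tumor, and of 3.04, 2.67 and 2.76 in DMH. hCA-Tumor lay below all other arrays and fell by 0.74 ± 0.12 relative to DMH (adjusted p = 0.00253). Prkg2, the cyclic GMP-dependent kinase that acts downstream of Gucy2c on Cftr and Slc9a3, was lower in both high calcium groups. Its levels were −2.22, −1.02 and −1.78 in hCA-Notumor, −2.39, −2.60 and −2.08 in hCA-Tumor, and −0.19, −0.11 and −0.15 in DMH. hCA-Notumor fell by 1.52 ± 0.28 relative to DMH (adjusted p = 0.00564; 0.0503 with slide as a block) and hCA-Tumor fell by 2.21 ± 0.28 (adjusted p = 0.00111). Vipr1, the receptor for vasoactive intestinal peptide, was 0.73 ± 0.22 higher in hCA-Notumor than in DMH, with an adjusted p of 0.0361 that was lost in 8 of 23 alternatives. It was 0.49 with slide as a block (adjusted p = 0.00624).

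Of 14 channels and pumps 12 were tested. In hCA-Notumor against DMH 10 were higher and none lower, with a median of 0.46, and 8 were higher with slide as a block, where 26.8% of all features were called. In hCA-Tumor against DMH 3 were higher and 2 lower, with a median of 0.052, and between hCA-Notumor and hCA-Tumor 10 were higher and 1 lower, with a median of 0.38. The last counts were 4 and 1 with slide as a block, beside 30% of all features called. Kcne3, a potassium channel subunit that serves chloride secretion, was 0.64 ± 0.073 higher in hCA-Notumor than in DMH (adjusted p = 0.000591), and Ano1, a calcium-activated chloride channel, was 0.62 ± 0.11 higher (adjusted p = 0.00397). Both calls were lost when arrays were centred on their median (adjusted p = 0.0975 and 0.194). Kcnma1, the large-conductance potassium channel, was 0.87 ± 0.14 higher (adjusted p = 0.0032), which normexp correction reduced to 0.28 (adjusted p = 0.317). Atp1b1, a beta subunit of the basolateral sodium pump, was 0.68 ± 0.047 higher in hCA-Notumor than in hCA-Tumor (adjusted p = 5.49e-05), and the goblet cell protein Clca1 was 0.80 ± 0.062 higher (adjusted p = 8.22e-05).

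**Figure D4:**
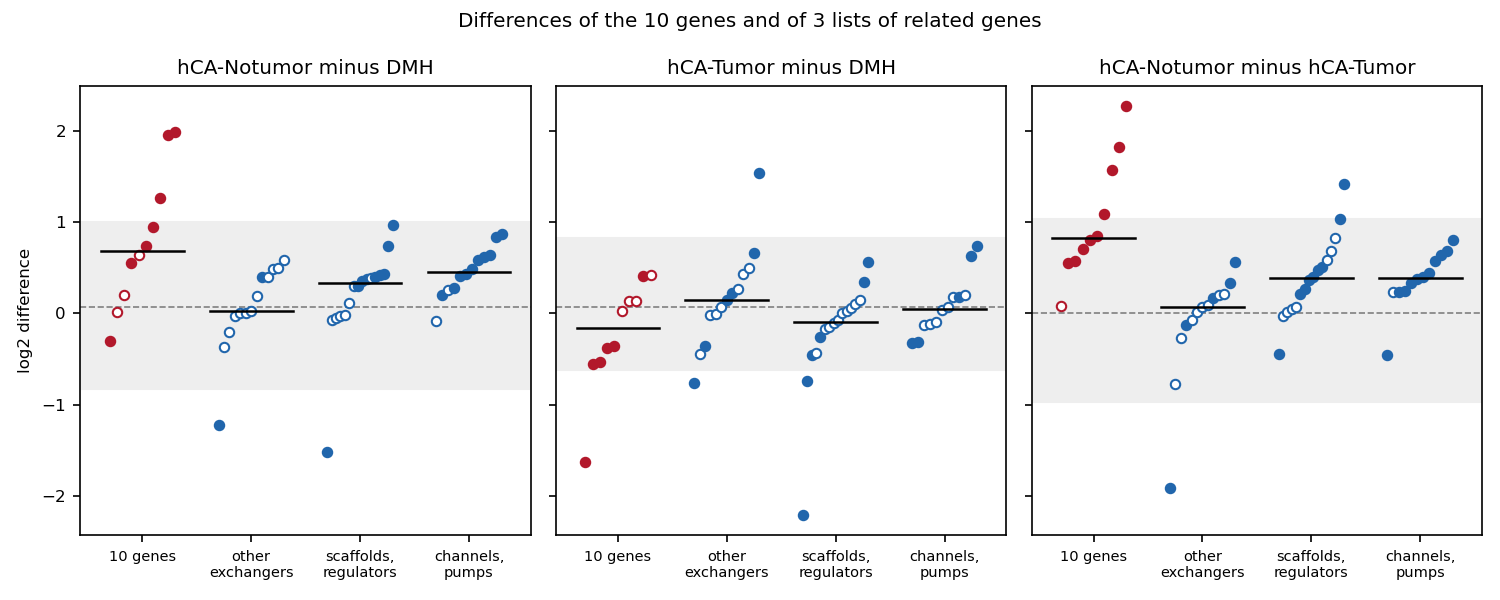
Differences of the 10 genes and of the tested members of 3 lists of related genes (log2 scale, 1 point per gene) in 3 comparisons; filled points passed an adjusted p under 0.05, bars are medians, the dashed line is the median of all features and the shaded band holds the middle 90% of them. The medians of the 10 genes are 0.69, −0.16 and 0.83 and those of the other exchangers 0.025, 0.15 and 0.068.

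Markers of other cell types and of position also differed between the groups, and their part in the differences above was not tested. Sums of marker signals over the 75th percentile of the array are given as ranges over 3 arrays. All 8 epithelial markers, such as Epcam and Cdh1, were well above background on all 9 arrays, and their sum was 1014 to 1087 in hCA-Notumor, 947 to 991 in hCA-Tumor, and 850 to 964 in DMH. The 6 measured markers of surface colonocytes, of 7, summed to 367 to 477 in hCA-Notumor, 229 to 414 in hCA-Tumor, and 359 to 444 in DMH. hCA-Tumor 1 and 2 were the lowest of these and hCA-Tumor 3 was not. Such sums weigh the brightest genes most. Gene by gene, 3 of the 6 were called higher in hCA-Notumor than in DMH and none lower, beside 35.7% of all features called. In hCA-Tumor against DMH none was higher and 1 was lower, beside 37%. Their median differences were 0.34 and −0.37. Car4 had 5.91, 5.91 and 5.99 in hCA-Notumor against 4.97, 4.66 and 4.59 in DMH. Slc51a had −2.08, 1.71 and 0.39 against 2.21, 2.22 and 2.28. The 8 smooth muscle markers summed to 291 to 362 in hCA-Notumor, 411 to 516 in hCA-Tumor, and 163 to 268 in DMH. The 268 was that of DMH 1, on the slide of hCA-Notumor, and DMH 2 and 3 had 192 and 163. In hCA-Notumor against DMH 7 of the 8 were called higher and 0 lower, beside 35.7% of all features. With slide as a block 1 was higher and 0 lower, beside 26.8%. The 6 fibroblast markers summed to 87.7 to 94.3 in hCA-Notumor, 152 to 162 in hCA-Tumor, and 106 to 114 in DMH. In such bulk samples, fewer cells of a type and less RNA per cell cannot be told apart.

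Adipocyte markers, 6 of 7 measured, summed to 4.63 to 7.94 in hCA-Notumor, 8.05 to 13.7 in hCA-Tumor, and 33.8 to 37.1 in DMH. Of these, Adipoq, Cfd, Plin1 and Retn were each well above background on 8 of 9 arrays, and Lep, which was left out of the sum, on 1. Goblet cell markers, 5 of 6 measured, summed to 1339 to 1404 in hCA-Notumor, 1113 to 1354 in hCA-Tumor, and 1007 to 1107 in DMH. The 8 proliferation genes summed to 31.6 to 34.5 in hCA-Notumor, 31.3 to 34.9 in hCA-Tumor, and 41.2 to 43.6 in DMH. Leukocyte markers, 7 of 8 measured, ran from 11.3 to 12.5 in hCA-Notumor, from 11.3 to 12.5 in hCA-Tumor, and from 12.5 to 13.6 in DMH. Enteric neuron and glia markers, 6 of 7 measured, ran from 2.52 to 4.48 in hCA-Notumor, from 3.50 to 5.33 in hCA-Tumor, and from 2.23 to 3.05 in DMH.

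Ion transport changes along the length of the colon, and Hox genes of the posterior groups mark position along it. The sum of the 6 measured position genes, of 7, was 23.7 to 29.0 in hCA-Notumor, 21.6 to 26.9 in hCA-Tumor, and 15.5 to 16.6 in DMH. Hoxb13 gave the largest signal in that sum on every array, and the single genes did not move together. Hoxa13 was 0.95 ± 0.11 higher in hCA-Notumor than in DMH (adjusted p = 0.000549) and 1.09 ± 0.11 higher than in hCA-Tumor (adjusted p = 0.000213). Hoxb13 was 1.04 ± 0.11 higher in hCA-Notumor than in DMH (adjusted p = 0.00039) and 0.88 ± 0.11 higher than in hCA-Tumor (adjusted p = 0.000599). Hoxd10 and Hoxd13 moved otherwise, at 1.43 ± 0.17 and 1.31 ± 0.19 higher in hCA-Tumor than in DMH (adjusted p = 0.000835 and 0.00183). Hoxd11 was 0.91 ± 0.23 higher in hCA-Tumor than in DMH (limma adjusted p = 0.0184). In hCA-Notumor against DMH its difference was −0.74 ± 0.23 (limma adjusted p = 0.0409), and −0.22 with slide as a block. Whether the samples were taken at the same place along the colon is not in the labels used here.

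**Figure D5:**
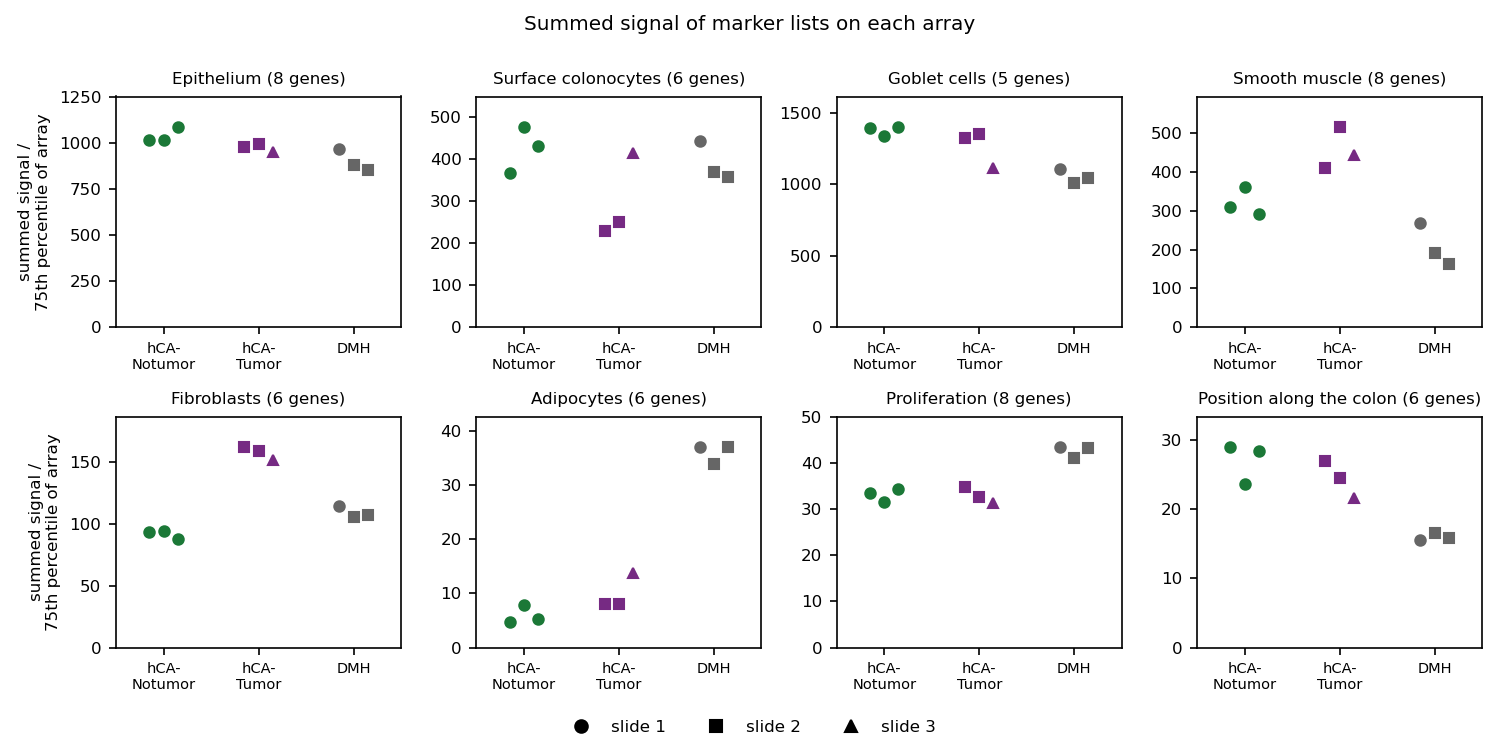
Summed signal of 8 marker lists on each array, as a multiple of the 75th percentile of the array, in hCA-Notumor, hCA-Tumor and DMH, 1 point per array with the slide as the mark; axes start at 0. The adipocyte sum is highest in DMH (33.8 to 37.1), the fibroblast sum in hCA-Tumor (152 to 162), and the position sum lowest in DMH (15.5 to 16.6).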

How the data were processed

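Total RNA of mouse colonic mucosa was measured on 9 Agilent 1-colour arrays. Per the file headers, each array's intensity values are the green processed signal of Agilent Feature Extraction 10.5.1.1, already background-subtracted by the scanner software, with a flag for spots well above background. The authors also deposited a whole-series table of log2 values, which matched log2 of the same signals minus each array's median over 23726 probes (r at least 0.9999936). The medians of its columns lay between 2.36 and 2.80. It served as an alternative. Probes were named by matching RefSeq transcripts to gene symbols: 25097 of 41174 probes matched.

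Control and outlier spots were left out, spots of a probe were averaged, and log2 signal minus the array's 75th percentile was used. The 75th percentile signal ran from 572.5 to 819.2, and the number of arrays limits the precision. The filter kept 27192 probes, those flagged well above background on all 3 arrays of some group. Each gene was represented by its brightest kept probe, and unnamed probes stood alone, which gave 21456 features. limma 3.58.1 in R 4.3.3 (lmFit, eBayes) was fitted on all 9 arrays with group as the only term, with Benjamini-Hochberg adjustment at 0.05. Slide was added as a block, and fitted within slides.

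All 10 genes, and every probe of them, are named. From each list the called genes with the largest differences, at most 4 per comparison, could be named, and for each of the 10 genes the 3 with the highest Pearson r. Some genes chosen this way are not reported here, and those in a list stay in its counts. The members and lists were chosen with earlier results of these data known. Marker sums and Hox values are descriptive. The fit was tested on simulated data. Alternatives were the background correction, normalization, centring, filters, probe choice, weights, arrays left out and a 2-fold rule.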

Additional observations from a re-analysis of the deposited data

Results flagged for a closer look

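The sodium/proton exchangers Slc9a2 and Slc9a3 differed from DMH in opposite directions in the high calcium groups: all hCA-Notumor arrays lay above every DMH array and all hCA-Tumor arrays below. Being flagged required opposite signs, arrays that did not overlap those of DMH, and a called difference between hCA-Notumor and hCA-Tumor. The call on that last difference is thus part of the rule and no separate support. How many of all features show the pattern was not counted. The difference between hCA-Notumor and hCA-Tumor was 1.09 for Slc9a2 (limma adjusted p = 0.000196) and 2.27 for Slc9a3 (adjusted p = 0.00741). For Slc9a2, both differences from DMH, 0.55 for hCA-Notumor and −0.54 for hCA-Tumor, were called. For Slc9a3 only the difference of hCA-Tumor was called, on a probe well above background on 1 of 3 hCA-Tumor arrays, and the fit with normexp correction gave 0.39 between the high calcium groups. Groups of 3 arrays were not tested for single outlying arrays.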

How the results depend on the processing

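Differences of Atp12a, Slc4a4, Slc26a3, Slc26a2 and Slc9a3r1 between hCA-Notumor and DMH stayed called and positive in all 23 alternatives, as did that of Slc9a2 in 20. Features called numbered 7667 (hCA-Notumor minus DMH), 7936 (hCA-Tumor minus DMH), 10235 (hCA-Notumor minus hCA-Tumor) and 6789 (mean of both minus DMH). In that order they numbered 3881, 4193, 6372 and 3234 with normexp correction, 3067, 2302, 4962 and 2160 with arrays centred on their median, 3401, 2489, 4891 and 2198 in the whole-series table, and 1398, 907, 1751 and 645 at an unadjusted p under 0.05 with 2-fold. Array weights gave 13272 for hCA-Notumor minus DMH and 10537 for the mean, slide as a block 6442 for hCA-Notumor minus hCA-Tumor, and slide 1 alone 3785 for hCA-Notumor minus DMH. Median centring shifted all differences by −0.186, −0.124, −0.0619 and −0.155, and the share of calls that were higher was 51.8%, 56.7%, 43.5% and 56.5% in the fit on the 75th percentile, against 33.0%, 37.7%, 39.1% and 31.9% with median centring and 29.6%, 39.3%, 37.4% and 30.3% in the whole-series table. Of the 10 genes (9 with the whole-series table and with the filter on all 9 arrays, where Slc9a3 was not analysed), 7, 6, 9 and 7 were called. With median centring 3 were called in hCA-Tumor minus DMH and 3 in the mean, in the deposited table of the series they were 2 and 4, and with the 2-fold rule 3, 1, 4 and 2. Leaving out 1 array gave 5401 to 9589, 6085 to 8189, 8453 to 12488 and 4387 to 7604 features and 7 to 8, 4 to 6, 9 and 5 to 7 genes; the lowest mean count was without DMH 3. The cause of these moves was not tested.

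Signs turned for differences that were near 0 or rested on dim or disagreeing probes. Slc9a2 in the mean was −0.0034 with quantile normalization, −0.15 with median centring and in the whole-series table, −0.034 with array weights, −0.046 with slide as a block, and −0.016, −0.0084 and −0.042 without hCA-Notumor 2, hCA-Notumor 3 and hCA-Tumor 3 (highest with 1 array left out 0.050, without hCA-Notumor 1). Cftr in hCA-Notumor minus DMH was −0.17 with median centring and in the whole-series table, −0.11 with slide as a block and within slide 1, and −0.050, −0.024 and −0.0020 without hCA-Notumor 1, DMH 2 and DMH 3 (highest with 1 array left out 0.082, without DMH 1; 0.085 with array weights). Slc9a3r1 in hCA-Tumor minus DMH was −0.092 with median centring, −0.094 in the whole-series table, −0.083 without hCA-Tumor 3 and −0.030 without DMH 3 (highest with 1 array left out 0.12, without DMH 1). Slc12a2 in hCA-Notumor minus hCA-Tumor was −0.045 with slide as a block, and Kcnn4 in the mean was 0.00041 with array weights. With normexp correction Slc26a9 in hCA-Notumor minus DMH was 0.10 and Slc9a3 in the mean 0.11. With the mean of a gene's probes, Slc4a7 was −0.021 in hCA-Notumor minus DMH and −0.34 in hCA-Notumor minus hCA-Tumor.

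With the replicate number as a block, 6085, 6549, 9009 and 5279 features and 7, 6, 9 and 6 of the 10 genes were called; Slc9a3r1 in the mean was lost (adjusted p = 0.0678). Over 9 same-numbered pairs the deviations from the group means correlated at −0.564 to 0.221, and 2 pairs were above 0.1. Over the 18 other pairs they correlated at −0.457 to 0.571, and 8 were above 0.1. The hCA-Tumor and DMH arrays each lay on more than 1 slide, so slide also enters these values. They cannot decide whether the numbers pair the arrays. Dim probes limit Slc9a3. Slide limits every difference between the high calcium groups, which share no slide, and the calls of Cftr and Kcnn4 there were lost with slide as a block. Those calls were also lost with median centring and in the whole-series table.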
